A study of Homo sapiens with 13 samples.

Results

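The regions described are all FOXA1 peaks on chromosome 17 in the endometrial cancer cell lines Hec1A and Ishikawa, as mapped by chromatin immunoprecipitation and sequencing (ChIP-seq). They were taken by the chromosome column of both peak lists, which gave 714 of 13252 Hec1A peaks and 1723 of 54855 Ishikawa peaks, or 2437 of 68107 in all. The Hec1A list was called on 3 pooled FOXA1 ChIP libraries, and 2 Hec1A input libraries are labelled. The Ishikawa list was called on 6 pooled FOXA1 ChIP libraries against 2 pooled inputs, input being sheared chromatin without immunoprecipitation. The labels give no treatment or genetic change for either line, and the same rabbit FOXA1 antibody lot for all ChIP libraries. Libraries were made with 2 kits, TruSeq for 1 Hec1A and 2 Ishikawa ChIP libraries and ThruPLEX for 2 Hec1A and 4 Ishikawa ones. Each line had 1 input of each kit. Whether the libraries of a line came from separate cultures is not given in the labels. Each line is represented by 1 peak list, so no value below has a replicate error.

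FOXA1 is a forkhead transcription factor that can bind its sites in closed chromatin and make them accessible to other factors, among them the oestrogen and androgen receptors. It is expressed in the epithelium of several hormone-dependent tissues, the endometrium among them. Chromosome 17 is rich in genes. It carries ERBB2, which codes for the receptor HER2 named in the title of the study, the tumour suppressor genes NF1 and BRCA1, the HOXB cluster and many keratin genes. Peaks were not assigned to genes here. All positions are on chromosome 17 of hg19, and no sequence is shown.

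The chromosome and its division at 20 Mb were chosen from values of these same lists, namely the Hec1A share of peaks on the chromosome and the Hec1A tag level around its peaks. All values on either side of 20 Mb, and against other chromosomes, are therefore a description without a test. Both sides hold members of both lists. From 20 Mb there were 594 Hec1A and 1396 Ishikawa peaks, and below 20 Mb there were 120 Hec1A and 327 Ishikawa peaks. The first Hec1A peak from 20 Mb, at 20020214 to 20020468, had a normalized tag count of 3.43, against 8.60 for the last one below, at 19896340 to 19896594. The last one below had a clonal fold, explained further on, of 2, the highest allowed, against 0.69 for the first from 20 Mb. Both had the same deposited score, 51. The tag level around these 2 peaks was alike, at 0.575 and 0.574. In Ishikawa the first peak from 20 Mb, at 20020116 to 20020468, had a normalized tag count of 8.44, against 35.1 for the last one below, at 19995994 to 19996346. The first peaks from 20 Mb of the 2 lines overlapped each other.

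The normalized tag count, called signal below, is the number of tags in a peak per 10000000 tags of the pool, a tag being the position of a mapped read. The pools held 143055568 tags in Hec1A and 343739762 tags in Ishikawa. A peak of median signal on chromosome 17 thus rested on 80 tags in Hec1A and 361 tags in Ishikawa. Counting error is therefore larger for a typical Hec1A peak. Peaks were also of unlike width, 254 bp in Hec1A and 353 bp in Ishikawa, and signals were not corrected for it. Putative Ishikawa peaks were filtered on input, while the Hec1A header records no such filter although the name of that list refers to inputs. Whether Hec1A peaks were filtered on input is therefore unclear, which limits how far the 2 lists can be compared.

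FOXA1 peaks were denser on the long stretch from 20 Mb than below it in both lists. Hec1A had 9.72 peaks per Mb from 20 Mb and 6.06 below, a ratio of 1.60. Ishikawa had 22.8 peaks per Mb from 20 Mb and 16.5 below, a ratio of 1.38. The other autosomes had 4.47 peaks per Mb in Hec1A and 18.9 in Ishikawa. Hec1A density was thus above that of the other autosomes on both sides, whereas Ishikawa density was above it from 20 Mb and under it below 20 Mb. By density, chromosome 17 ranked 2 of 22 autosomes in Hec1A, with 8.82 peaks per Mb, and 4 of 22 in Ishikawa, with 21.3. There were 0.426 Hec1A peaks per Ishikawa peak from 20 Mb and 0.367 below, against 0.237 on the other autosomes. The headers give 1 tag threshold for each whole list, 32 tags in Hec1A and 88 in Ishikawa. Peak density can therefore depend on the tag level of a stretch, and this part was not tested.

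Peaks were unevenly spread along the chromosome, and the fullest and the thinnest window were the same in both lists. Of the windows of 5 Mb, that from 35 to 40 Mb held most peaks in both lists, with 80 in Hec1A and 164 in Ishikawa. The window from 10 to 15 Mb held fewest, with 5 and 21 peaks in Hec1A and Ishikawa. The windows from 20 to 25 Mb, with 15 Hec1A and 27 Ishikawa peaks, and from 50 to 55 Mb, with 18 and 45, were also thin. The largest interval free of peaks in both lists ran from 22020944 to 25372054, a length of 3.35 Mb. It took up most of the window from 20 to 25 Mb. In the 2.02 Mb between 20 Mb and this interval, Hec1A had 7.42 peaks per Mb, against 6.06 below 20 Mb. Ishikawa had 13.4 there, against 16.5 below. Whether reads could be mapped within the interval was not tested, so its lack of peaks is no measure of FOXA1 binding.

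**Figure D1:**
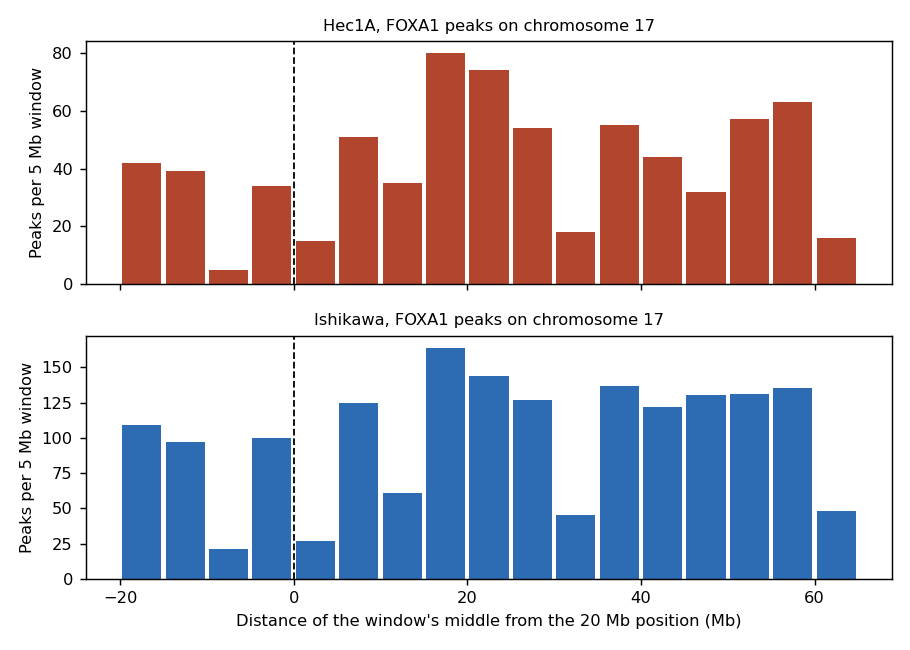
FOXA1 peaks per 5 Mb window on chromosome 17 in Hec1A (top) and Ishikawa (bottom), against the distance of each window from the 20 Mb position (dashed line). The last window is only partly covered by the chromosome. Both lists peak in the window from 35 to 40 Mb, with 80 and 164 peaks in Hec1A and Ishikawa, and are thinnest from 10 to 15 Mb, with 5 and 21 peaks.

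At a finer scale the densest stretches differed in part. Hec1A had 21 peaks in each of the 1 Mb windows that start at 41, 43 and 73 Mb, where Ishikawa had 35, 33 and 39 peaks. Shared sites numbered 9, 10 and 10 there. Ishikawa was densest at 48 to 49 Mb, with 43 peaks, where Hec1A had 10 peaks and 2 sites were shared. The windows that start at 37 and 38 Mb followed with 39 Ishikawa peaks each, where Hec1A had 14 and 19 peaks. The window at 38 Mb was crowded in both lines and held 11 shared sites.

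The clonal fold of Hec1A peaks was more often high from 20 Mb than below. It is the authors' deposited ratio of expected to observed distinct tag positions in a peak, given its number of tags, so that a high value marks tags stacked on few positions. Values up to 2 were allowed in the lists. The headers record 25004 putative Hec1A peaks removed as too clonal, against 13252 kept, and 12587 in Ishikawa, against 54855 kept. The shares below describe only the peaks that were kept. In Hec1A a clonal fold above 1 was found for 252 of 594 peaks from 20 Mb (42.4%, 95% Wilson interval 38.5% to 46.4%). Below 20 Mb it was found for 17 of 120 (14.2%, 9.04% to 21.5%), and in the whole Hec1A list for 28.8%. The share from 20 Mb thus lay above that of the whole list and the share below 20 Mb lay under it, with intervals that did not overlap. These intervals cover counting error alone and treat peaks as independent. Most Hec1A peaks on both sides were at or under 1, with median clonal folds of 0.78 from 20 Mb and 0.695 below. By the Hec1A share above 1, chromosome 17 ranked 3 of 22 autosomes, with 37.7%. Chromosome 3 had 50.6% and chromosome 5 had 40.2%.

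In Ishikawa the intervals of the 2 sides overlapped. A clonal fold above 1 was found for 293 of 1396 Ishikawa peaks from 20 Mb (21.0%, 18.9% to 23.2%) and 63 of 327 below (19.3%, 15.4% to 23.9%), against 25.1% in the whole Ishikawa list. In Hec1A the share was at least 31.3% in each of the 12 windows of 5 Mb from 25 Mb, and at most 20% in each of the 4 windows below 20 Mb. It was 6 of 15 (40%, 19.8% to 64.3%) in the window from 20 to 25 Mb. Its highest value was 72.2%, among the 18 Hec1A peaks at 50 to 55 Mb. Ishikawa had 46.7% in that window, 47.6% at 10 to 15 Mb and 25.9% at 20 to 25 Mb.

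Peaks of high clonal fold accounted for most of the higher Hec1A density from 20 Mb. Hec1A peaks with a clonal fold above 1 numbered 4.12 per Mb from 20 Mb and 0.859 per Mb below, a ratio of 4.80. Hec1A peaks at or under a clonal fold of 1 numbered 5.60 per Mb from 20 Mb and 5.20 per Mb below, a ratio of 1.08. On the other autosomes the 2 classes had 1.27 and 3.20 Hec1A peaks per Mb. Hec1A peaks of low clonal fold were therefore about as dense on either side of 20 Mb, and denser on both than on the other autosomes. In Ishikawa the ratio was 1.51 for peaks with a clonal fold above 1 and 1.35 for the rest, so its density differed in both classes.

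Hec1A signal was higher from 20 Mb. The median was 5.94 there, with quartiles of 4.7 and 8.79, and 3.91 below 20 Mb, with quartiles of 3.08 and 5.31. The ratio of the medians was 1.52, and the median of the other autosomes, 4.96, lay between them. The whole of chromosome 17 had a Hec1A median of 5.59, the same as chromosome 3. Ishikawa medians were close, at 10.6 from 20 Mb and 9.89 below, a ratio of 1.07, with 9.80 on the other autosomes. The ratio in Ishikawa turned to 0.962 among peaks at least 8-fold over the local region, to 0.986 among its highest-scoring peaks and to 0.988 without the stretch from 68 to 75 Mb.

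The tag level around the Hec1A peaks was also higher from 20 Mb. This local tag level is the signal divided by the deposited fold over the local region, that is, the tags expected in the peak from the surrounding 10000 bp. Its Hec1A median was 1.09 from 20 Mb, with quartiles of 0.901 and 1.33, and 0.697 below, with quartiles of 0.591 and 0.815. The ratio was 1.57, beside 1.52 for the signal. The 2 are not independent, since the local tag level is computed from the signal and peaks were kept only from 4-fold over it. The fold over the local region itself had nearly the same Hec1A median on both sides, at 5.40 from 20 Mb and 5.36 below. On the other autosomes it was 5.73. By median Hec1A local tag level, chromosome 17 ranked 2 of 22 autosomes, at 1.01, after chromosome 3 at 1.03. Ishikawa peaks had a median local tag level of 1.38 from 20 Mb and 1.28 below, and were a median 7.29-fold and 7.20-fold over it from and below 20 Mb.

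The Hec1A level did not change at 20 Mb itself. The 15 Hec1A peaks between 20 Mb and the peak-free interval had a median local tag level of 0.744, near that of the windows below 20 Mb, which ranged from 0.655 to 0.740. The 579 Hec1A peaks beyond the interval had 1.09, and each of the 12 windows from 25 Mb lay between 0.970 and 1.26. In windows of 5 Mb the step in tag level thus fell across the peak-free interval, and every later window stayed above those before it. In windows of 1 Mb, which hold few peaks, the levels of the 2 parts overlapped. They reached 0.904 at 21 to 22 Mb (8 Hec1A peaks) and fell to 0.739 at 32 to 33 Mb (4 Hec1A peaks). Of the 480 windows of 5 Mb on other autosomes with at least 10 Hec1A peaks, 5% lay above 1.09 and the median was 0.774. All 12 windows of chromosome 17 from 25 Mb lay above that median and 6 above the upper value, and none of the 3 windows below 20 Mb with at least 10 peaks lay above the median.

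**Figure D2:**
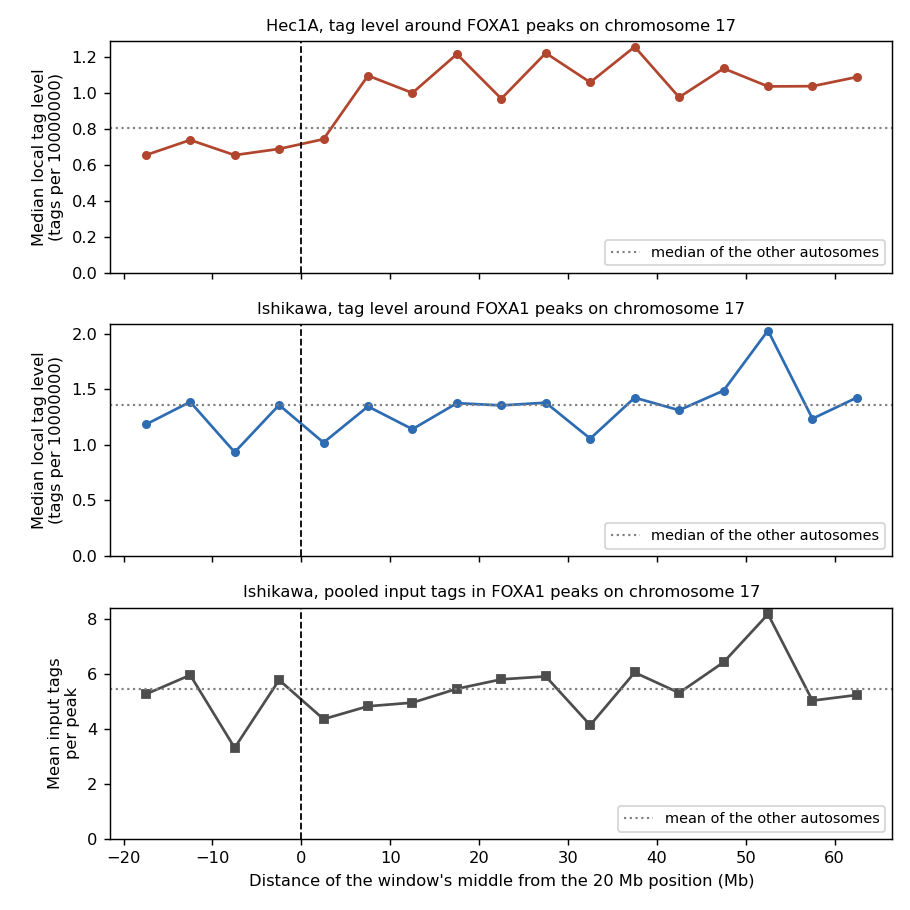
Median local tag level around FOXA1 peaks of chromosome 17 in windows of 5 Mb, for Hec1A (top) and Ishikawa (middle), and mean pooled Ishikawa input tags per Ishikawa peak (bottom), against the distance from the 20 Mb position (dashed line). Dotted lines give the other autosomes. Hec1A lies between 0.970 and 1.26 in the windows from 25 Mb and between 0.655 and 0.740 below 20 Mb, and Ishikawa rises to 2.03 in the window from 70 to 75 Mb together with its input.

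Ishikawa had a raised stretch of its own, at 68 to 75 Mb, whose limits were chosen from its values. Its 181 Ishikawa peaks there had a median local tag level of 2.06, against 1.31 for the other Ishikawa peaks from 20 Mb, a ratio of 1.57. The 1 Mb windows of the stretch ranged from 1.62 to 2.51, and the windows on either side had 1.33 and 1.22. Other windows from 20 Mb also fell in that range, such as 1.88 at 55 to 56 Mb and 1.90 at 77 to 78 Mb. Pooled Ishikawa input was also higher in the stretch, at a mean of 8.25 input tags per peak. It was 5.35 in the other peaks from 20 Mb, a ratio of 1.54. Median signal was 14.6 in the stretch and 9.77 elsewhere from 20 Mb, while the median fold over the local region was 6.93 and 7.33. The part of input in these signals was not tested.

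Hec1A was not raised at 68 to 75 Mb relative to its surroundings. Its 66 peaks there had a median local tag level of 1.06, against 1.09 for the other Hec1A peaks from 20 Mb. The 2 lines thus had their higher tag levels over different lengths of the chromosome. Mean Ishikawa input across the whole of both sides was 5.73 tags per peak from 20 Mb and 5.50 below. Hec1A input tags are not analysed here, so the level of Hec1A input on either side of 20 Mb was not tested.

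Overlap between the lines was counted where a Hec1A and an Ishikawa peak shared at least 1 bp. On chromosome 17, 349 sites were shared, which was 48.9% of its Hec1A peaks (95% Wilson interval 45.2% to 52.5%) and 20.3% of its Ishikawa peaks (18.4% to 22.2%). The whole lists had 52.9% of Hec1A peaks and 12.8% of Ishikawa peaks with a partner. Chromosome 17 ranked 19 of 22 autosomes by the Hec1A share and 2 of 22 by the Ishikawa share. Each shared site paired 1 Hec1A with 1 Ishikawa peak, so the Ishikawa share also rises with the number of Hec1A peaks per Ishikawa peak. That number was 0.414 on chromosome 17 and 0.237 on the other autosomes. As the chromosome was chosen for its share of Hec1A peaks, its high Ishikawa share is no sign of more sharing. Shared peaks were close to concentric, with a median of 15 bp between the centres of the Hec1A and the Ishikawa peak.

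The share of Hec1A peaks with an Ishikawa partner was lower from 20 Mb than below, and the order was the opposite among peaks of low clonal fold. A partner was found for 280 of 594 Hec1A peaks from 20 Mb (47.1%, 43.2% to 51.2%) and 69 of 120 below (57.5%, 48.6% to 66.0%). In Hec1A, among the peaks at or under a clonal fold of 1, 236 of 342 from 20 Mb (69.0%, 63.9% to 73.7%) and 65 of 103 below (63.1%, 53.5% to 71.8%) had one, against 64.4% of this class in the whole list. Among those with a clonal fold above 1 it was 44 of 252 from 20 Mb (17.5%, 13.3% to 22.6%) and 4 of 17 below (23.5%, 9.56% to 47.3%), against 24.6% in the whole list. The intervals of the 2 sides overlapped in each case. Of the 314 Hec1A peaks without a partner from 20 Mb, 208 (66.2%) had a clonal fold above 1, against 13 of 51 (25.5%) below.

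**Figure D3:**
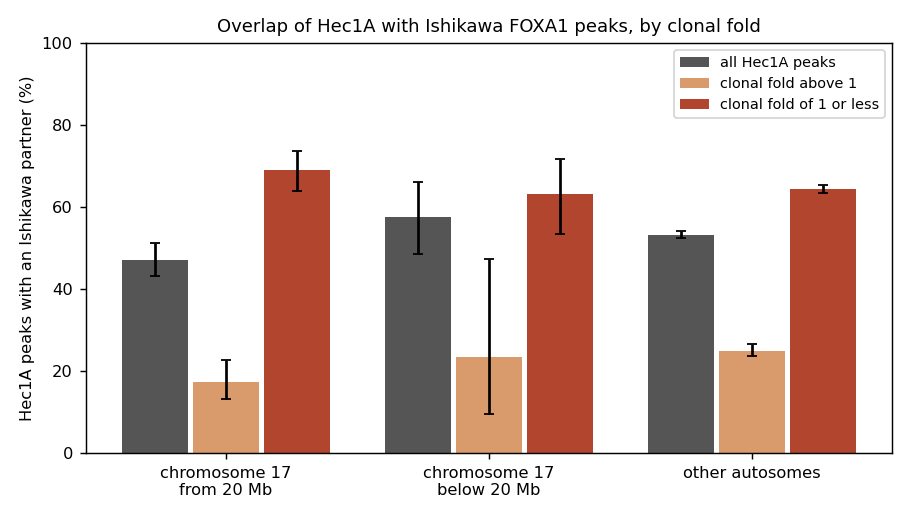
Share of Hec1A peaks that overlapped an Ishikawa peak by at least 1 bp, for chromosome 17 from 20 Mb, chromosome 17 below 20 Mb and the other autosomes, with 95% Wilson intervals as error bars. All Hec1A peaks have shares of 47.1%, 57.5% and 53.2% in these groups, and the Hec1A peaks at or under a clonal fold of 1 have 69.0%, 63.1% and 64.4%, in each group above the peaks over 1.

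Seen from Ishikawa, the shares on both sides were close and their intervals overlapped. A Hec1A partner was found for 280 of 1396 Ishikawa peaks from 20 Mb (20.1%, 18.0% to 22.2%) and 69 of 327 below (21.1%, 17.03% to 25.8%). Windows of 5 Mb ranged from 8.89% at 50 to 55 Mb to 26.4% at 40 to 45 Mb. Peaks of high score had a partner more often than peaks of low score on both sides. The score counts tags with a cap per position, so it is not independent of the clonal fold. The part of clonality in these shares was not tested. In Hec1A from 20 Mb, 113 of 150 peaks in the highest 25% of scores (75.3%) and 12 of 149 in the lowest 25% (8.05%) had one. In Hec1A below 20 Mb the counts were 23 of 30 in the highest 25% (76.7%) and 8 of 31 in the lowest 25% (25.8%). In Ishikawa from 20 Mb they were 145 of 349 (41.5%) and 14 of 353 (3.97%). In Ishikawa below 20 Mb they were 33 of 82 (40.2%) and 3 of 84 (3.57%).

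Peaks without a partner were also measured by their distance to the nearest peak of the other line, which depends on how dense that other list is. For Hec1A peaks without a partner the median distance was 11.0 kb from 20 Mb and 11.1 kb below, against 15.8 kb on the other autosomes. Of these Hec1A peaks, 147 of 314 from 20 Mb (46.8%) and 25 of 51 below (49.0%) lay within 10 kb of an Ishikawa peak, against 36.8% on the other autosomes. For Ishikawa peaks without a partner the median distance was 30.4 kb from 20 Mb and 47.5 kb below, against 78.2 kb on the other autosomes. Of these Ishikawa peaks, 223 of 1116 from 20 Mb (19.98%) and 35 of 258 below (13.6%) lay within 10 kb of a Hec1A peak, against 8.97% on the other autosomes. The lists were denser on chromosome 17 than on the other autosomes, and the part of density in these distances was not tested. Neighbouring peaks of 1 list were a median of 54.8 kb apart from 20 Mb and 73.9 kb below in Hec1A, and 24.7 kb and 32.2 kb in Ishikawa.

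At the shared sites the lines could be set side by side, but their pools differed in enrichment. The headers give an approximate efficiency of the immunoprecipitation, the percent of tags in peaks, of 1.12 in Hec1A and 9.66 in Ishikawa. The part of this, and of the unlike peak widths, in the signal ratios here and below was not tested. Hec1A signal was lower than Ishikawa signal at most shared sites. The median ratio of Hec1A to Ishikawa was 0.382 over the 280 sites from 20 Mb and 0.248 over the 69 sites below. The other autosomes had a median ratio of 0.277, between the 2 sides. On the log2 scale the medians were -1.39 from 20 Mb and -2.01 below, a difference of 0.63. The local tag level differed by nearly as much, with log2 medians of -0.42 from 20 Mb and -1.02 below, a difference of 0.60. The fold over the local region did not follow, with log2 medians of -1.06 from 20 Mb and -0.97 below. As the local tag level is computed from the signal and the fold, these 3 differences are not independent of each other.

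**Figure D4:**
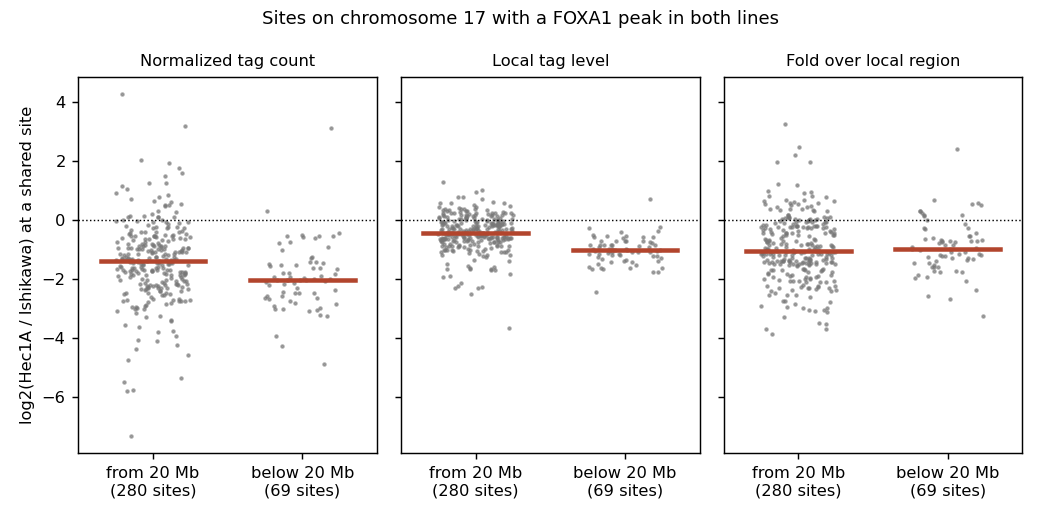
Ratio of Hec1A to Ishikawa on the log2 scale at the 280 sites shared from 20 Mb and the 69 sites shared below 20 Mb of chromosome 17, for the normalized tag count (left), the local tag level (middle) and the fold over the local region (right). Points are sites and bars are medians, which are -1.39 and -2.01, -0.42 and -1.02, and -1.06 and -0.97 from and below 20 Mb.

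Hec1A had the higher signal at 32 of 280 shared sites from 20 Mb (11.4%, 8.21% to 15.7%) and 2 of 69 below (2.90%, 0.799% to 9.97%), against 6.43% of all shared sites. Across sites, log2 signals of the 2 lines correlated with a Pearson r of 0.499 from 20 Mb (280 sites) and 0.480 below (69 sites), and Spearman's rho was 0.406 and 0.501. The sites share the 2 pools they were read from, so these values describe the sites and carry no test.

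Ranked by the mean of the score ranks within both chromosome 17 lists, the first 8 shared sites all lay from 20 Mb, the side that held 280 of the 349 shared sites. Of the 20 peaks of highest score 17 in Hec1A and 18 in Ishikawa lay from 20 Mb, and of the 100 highest 90 and 87 did. All peaks on that side were 594 of 714 in Hec1A and 1396 of 1723 in Ishikawa. The leading site, at 39114408 to 39114662 in Hec1A, ranked 1 in Hec1A and 5 in Ishikawa. It had a signal of 228.9 in Hec1A and 639.3 in Ishikawa, with 3275 and 21975 tags. Its Hec1A and Ishikawa centres were 3 bp apart. The site at 74637755 to 74638009 followed, with a signal of 86.1 in Hec1A and 475.1 in Ishikawa, and ranked 1 in Ishikawa. The third, at 79367801 to 79368055, had a signal of 164.0 in Hec1A and 745.6 in Ishikawa, and only 3 pooled input tags against 25629 Ishikawa ChIP tags.

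The next 5 sites also had the higher signal in Ishikawa. The site at 39957729 to 39957983 had a signal of 82.4 in Hec1A and 383.0 in Ishikawa. At 68070466 to 68070720 the signals were 95.3 in Hec1A and 321.3 in Ishikawa, and at 56468883 to 56469137 they were 60.2 and 253.6. The last of the 8 were at 40896884 to 40897138, with 54.9 in Hec1A and 301.7 in Ishikawa, and at 37139363 to 37139617, with 69.1 and 252.8. Over these 8 sites Ishikawa signal was 2.79 to 5.52 times that of Hec1A. The focus ratio is the share of tags on the strand side expected around the peak centre. At these sites it was 0.848 to 0.978 in Hec1A and 0.814 to 0.988 in Ishikawa. The site at 74637755 had the lowest of these Ishikawa focus ratios and the largest distance between the 2 centres, 77 bp.

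Below 20 Mb the leading shared sites were weaker in Hec1A than the 8 from 20 Mb. All but the first were also weaker in Ishikawa than each of those 8. They lead a set of 69 shared sites, against 280 from 20 Mb, and a smaller set can have weaker leaders for its size alone. The first, at 8059939 to 8060193, had a signal of 41.2 in Hec1A and 277.1 in Ishikawa, and ranked 22 in Hec1A and 14 in Ishikawa. The second, at 8657249 to 8657503, had 30.5 in Hec1A and 72.1 in Ishikawa. At 1040902 to 1041156 the signals were 12.4 in Hec1A and 190.0 in Ishikawa, and at 4613444 to 4613698 they were 10.8 and 206.1. The second site was the most even of these 4, while Ishikawa signal was 15.3 and 19.1 times that of Hec1A at the last 2.

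Some sites departed far from the usual ratio, and those named here were picked for it after their values were seen. At 67758202 to 67758456, the peak of second highest score in Hec1A, the signal was 160.1 in Hec1A and 8.32 in Ishikawa, 19.2 times higher in Hec1A. At 43782807 to 43783061 it was 102.5 in Hec1A and 11.2 in Ishikawa, 9.15 times higher in Hec1A. In the other direction stood 41747493 to 41747747, with 7.90 in Hec1A and 1267.5 in Ishikawa, where Ishikawa was 160.4 times higher. This Ishikawa peak had a fold over input of 818.4. Its Hec1A partner rested on 113 tags and was 7.17-fold over its local region. Sites strong in 1 line were therefore not always strong in the other, although a peak was listed in both.

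A pair of Hec1A peaks below 20 Mb stood apart from that side. The peak at 5736232 to 5736486 had a signal of 60.0 in Hec1A and 6.84 in Ishikawa, and was the strongest exception there to the lower Hec1A signal. The Hec1A peak at 5740419 to 5740673 lay about 4 kb further on, without a partner, with a signal of 57.6 and a focus ratio of 0.978. Its nearest Ishikawa peak was 4.20 kb away. The local tag levels of the 2 Hec1A peaks were 2.58 and 2.62, against the median of 0.697 for that side. As they lay about 4 kb apart, the tags of each peak can count in the surrounding 10000 bp of the other. The part of this in the 2 local tag levels was not tested.

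Hec1A peaks without a partner reached lower signals than the shared ones. From 20 Mb the highest-scoring was at 33478055 to 33478309, with a signal of 50.1, a clonal fold of 1.01 and the nearest Ishikawa peak 20.5 kb away. It was followed by 41400190 to 41400444, with a signal of 29.5 and a low focus ratio of 0.568. The others were at 59239061 to 59239315, with 34.6, and at 48968171 to 48968425, with 21.9. They had Ishikawa peaks 4.46 kb and 13.6 kb away. Below 20 Mb the second, after that at 5740419, was at 4386868 to 4387122, with a signal of only 9.72.

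Ishikawa peaks without a partner had higher signals than these, on both sides. From 20 Mb the first was at 59413399 to 59413751, with a signal of 238.0 and a fold over input of 307.3, and the nearest Hec1A peak was 20.6 kb away. The next were at 39210372 to 39210724, with a signal of 166.9, at 46237958 to 46238310, with 160.4, and at 81122209 to 81122561, with 135.4. Below 20 Mb the leading ones were at 6947064 to 6947416, with a signal of 219.3, and at 991053 to 991405, with 225.6. The site at 6947064 lay 2.06 kb from a Hec1A peak and the other 27.3 kb from one. These 6 peaks had 2 to 14 pooled input tags each.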

How the data were processed

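FOXA1 ChIP and input libraries of Hec1A and Ishikawa, 13 in all, were prepared with TruSeq or ThruPLEX, per the labels' protocols. Bowtie 1.1.2, SAMtools 1.3.1, HOMER 4.7.2 and hg19 are named in the submitters' processing notes. Per the file headers, the authors called 1 list per line on pooled tags, at a false discovery rate of 0.001, at least 4-fold over the local 10000 bp and with a clonal fold of at most 2. Ishikawa peaks also had to be 4-fold over input.

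Signal in the deposited lists is a peak's tags per 10000000. Focus ratios were deposited as a fraction, the deposited score ranks peaks, and the deposited folds over local region, over input and for clonality are ratios.

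Peaks were placed by their start. Density used the length between the outermost peaks of a chromosome. The overlap count was checked on simulated lists with planted overlaps, all of which it recovered. Computation used Python 3.11.15, pandas 2.3.3, numpy 2.4.6 and statsmodels 0.14.6. Members, lists and descriptions were chosen with earlier results of these data known, so no statistical test of a difference was made. Sites were named by rank: by mean score rank the first 8 shared sites from 20 Mb and the first 4 below, and by score the first 4 and 2 without a partner in each line. The limits of 68 and 75 Mb and the sites with extreme ratios were chosen after their values were seen. Values per library are not analysed here. The RefSeq gene table is of another build and served for names alone: all 41 genes looked up are on chromosome 17.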

Additional observations from a re-analysis of the deposited data

How the results depend on the processing

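Over 8 results, 49 alternatives were computed. Of these, 43 stayed within the 95% Wilson interval of a share or within 1.5 times a ratio, and 6 did not. All 6 were shares of Hec1A peaks with an Ishikawa partner. The limit of 1.5 times is wide for ratios near 1, so a ratio within it can still lose its difference. The Hec1A density ratio fell from 1.60 to 1.08 at or under a clonal fold of 1. The Ishikawa signal ratio was above 1 in only 3 of 6 alternatives. Among peaks at least 8-fold over the local region in both lists, the shares were 63.8% from 20 Mb and 77.8% below. With the Ishikawa list reduced to its 13252 highest-scoring peaks they were 26.4% and 28.3%, as fewer Ishikawa peaks were left to overlap. From 20 Mb the share was 64.0% at or under a clonal fold of 1 in both lists, and 69.0% with that limit in Hec1A alone. In these 2 of 8 settings the share from 20 Mb was the higher. The cause was not tested. Hec1A ratios of from over below 20 Mb stayed above 1 in each of 5 alternatives, at 1.08 to 1.90 for density, 1.52 to 1.84 for local tag level and 1.46 to 1.85 for signal. Ishikawa density ratios were 1.35 to 1.71 over 6 alternatives. The limit on Hec1A clonality alone, the omission of 68 to 75 Mb and the omission of the peak-free interval from the length were alternatives chosen after seeing the data. No paired analysis was possible because both lists were called on pooled tags, and leaving out a library was not run for the same reason. The smallest Hec1A peaks by signal rest on few tags, so their values carry the largest counting error.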
